A study of Mus musculus with 12 samples.

Results

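Genes for ion channels, receptors, an adenylyl cyclase, calcium handling proteins and a cyclic GMP dependent kinase of smooth muscle were followed in the mouse aorta after elastase infusion. These 10 genes are P2rx1, Kcnmb1, Kcnma1, Adcy5, Adora2a, Pln, Cacna1c, Ednra, Atp2b4 and Prkg1, of 24341 genes with a symbol in the count table. Each gene was represented by its RefSeq accession with the highest mean CPM, a count scaled to a common library total (by TMM, a scaling to a reference library). The accession was thus chosen by measured counts, and the genes were listed with earlier results of these data known, fold changes included. The adjusted p-values given for them therefore describe the fit and are not independent evidence.

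RNA-seq was performed on aortas of 12 male C57BL/6J mice aged 10 weeks, 4 per group. In the saline group the infrarenal aorta was infused with saline and taken at day 7. In the PPE week 1 and PPE week 2 groups the same segment received elastase from porcine pancreas (PPE), which degrades elastin and is used to induce aneurysms, and the aorta was taken at day 7 or day 14. No saline group of day 14 was analysed here, so elastase and the later day of harvest cannot be told apart in the comparison of week 2 with saline. Both PPE groups were compared with the same 4 saline libraries.

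Smooth muscle of the artery wall contracts when calcium enters through voltage-gated channels such as the L-type channel (Cacna1c) or through ligand-gated channels such as the ATP receptor P2X1 (P2rx1), and when agonists such as endothelin act on their receptors (Ednra). Relaxation is favoured by the large-conductance calcium-activated potassium channel, built from a pore subunit (Kcnma1) and a smooth muscle accessory subunit (Kcnmb1). It is also favoured by cyclic AMP, made by adenylyl cyclases (Adcy5) under receptors such as the adenosine receptor of type 2A (Adora2a), and by cyclic GMP acting through its kinase (Prkg1). Calcium leaves the cytoplasm through the store pump that phospholamban (Pln) restrains and through plasma membrane pumps (Atp2b4).

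Among the genes with enough counts, Kcnmb1 and Adcy5 fell 3.60-fold and 3.27-fold 1 week after PPE and at week 2 were 3.42-fold and 4.25-fold higher than at week 1. P2rx1 did not pass the test at week 1 and rose 2.97-fold over saline at week 2. Adora2a rose at both times, 3.20-fold at week 1 and 3.64-fold at week 2. Ednra, Atp2b4 and Prkg1 passed the test in none of the 3 comparisons.

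The libraries held 8343313 to 12269131 counts, of which 19.5 to 49.9% lay on a ribosomal RNA precursor (NR_046233), leaving 4835305 to 9169690 for other features. The share of that precursor averaged 41.3% in the saline group, 30.4% after 1 week of PPE and 20.4% in the week 2 libraries, and it differed from saline at both times (two-sided exact permutation test, p = 0.0286 for each, the smallest that 4 against 4 libraries allow). Adding this share to the model as a covariate reduced the accessions called over the whole table from 508 higher and 499 lower to 23 and 59 at week 1, and from 166 and 172 to 0 and 0 at week 2 against saline (edgeR, with 764 accessions there at an unadjusted p under 0.05). The share and the treatment move together, so their parts in a gene's difference cannot be told apart in full. The smooth muscle markers differed widely in level, with Acta2, the smooth muscle actin, highest at 3569 ± 512 CPM in saline (SD, n = 4). Tagln, Mylk, Lmod1, Cnn1 and Des had means of 113 to 908 CPM there. Myh11 was measured at 14.2 CPM in saline and 2.54 at PPE week 1, and Smtn had at most 1.36 CPM in any group. Any other isoforms of a marker are not in these values, which are also not scaled to transcript length. Whether the low values of Myh11 and Smtn reflect low expression was not tested.

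Of the 10 genes 7 passed the filter on low counts and were tested. The other 3, Kcnma1, Pln and Cacna1c, had 27, 31 and 77 counts in all 12 libraries together and were not. They have 22, 2 and 11 accessions, of which 20, 1 and 9 were listed at 0 in every library. Among all accessions 23.7% of those from genes with a single accession were listed at 0 in all libraries, against 87.0% for genes with 10 or more. For genes with 2 accessions, as Pln, it was 49.2%. The other Pln accession has 1716 bases of its own and 0 counts, and a Cacna1c accession with 5079 of its own also has 0. The low totals of these 3 genes are not used here as a measure of their expression, and the reason for them was not tested. P2rx1, Kcnmb1, Adcy5, Adora2a and Ednra have 1 accession each, while the counts of Atp2b4 rest on an accession with 191 bases not shared with its other isoform. Because the kit does not keep the strand, overlapping gene models matter too. No other model shares exon bases with P2rx1, Kcnmb1, Adcy5, Adora2a or Prkg1, and Ednra shares 91 bases with the opposite-strand transcript 4933431K23Rik.

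At PPE week 1 against saline, 1 of the 7 tested genes was called higher and 2 lower, where 3.98% and 3.91% of all 12756 tested accessions were called (7.89% together). At PPE week 2 against saline 2 were called higher and 0 lower by edgeR (1 lower before adjustment at p under 0.05, and 0 with DESeq2 or limma-voom), beside 1.3% and 1.35% of all accessions (2.65% together). Between the PPE weeks 3 were called higher at week 2 and 0 lower (0 also before adjustment at p under 0.05, with DESeq2 and with limma-voom), beside 3.77% and 2.82% (6.59% together). In each of these 8 calls the 4 libraries of one group lay entirely above or below the 4 of the other, which held for 12.1% (all above) and 9.01% (all below) of accessions at week 1, 4.55% and 4.44% at week 2 against saline, and 7.24% and 8.68% between the weeks.

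**Figure D1:**
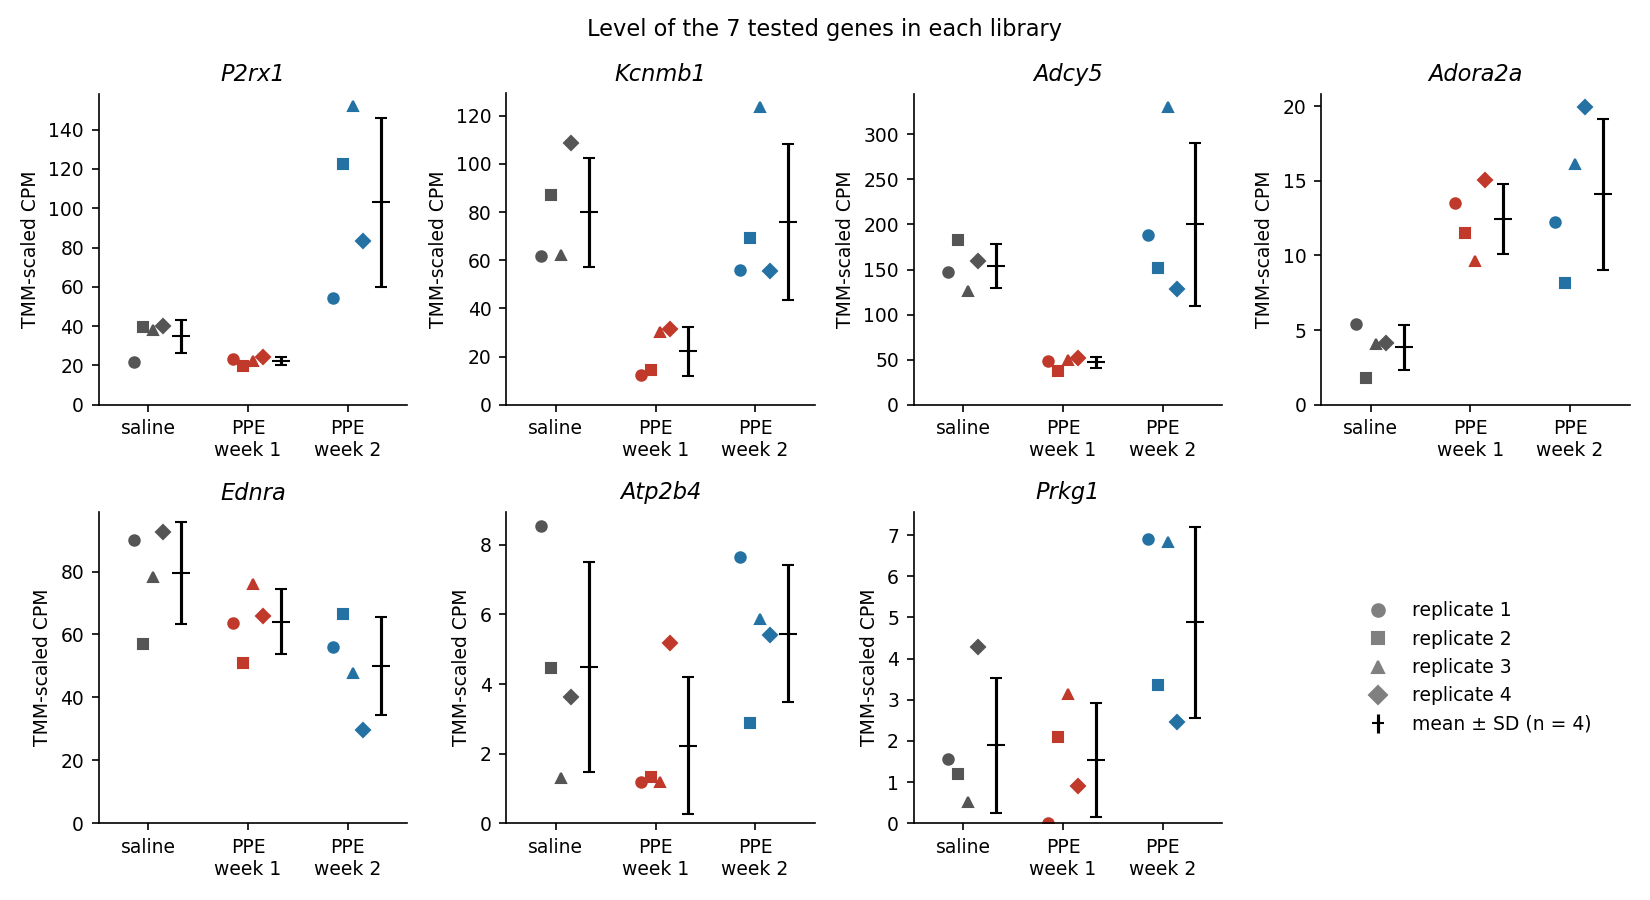
Level of the 7 tested genes in TMM-scaled CPM (vertical axes, linear, from 0) in each of the 4 libraries of the saline, PPE week 1 and PPE week 2 groups; marker shapes are replicate numbers and black bars the mean ± SD. The PPE week 1 libraries of Kcnmb1 and Adcy5 lie below all others, the PPE week 2 libraries of P2rx1 lie above all others, and the saline libraries of Adora2a lie below all others.

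Kcnmb1, the beta subunit that raises the calcium sensitivity of the potassium channel, spans chr11:33962955-33973641 on the plus strand of GRCm38.p6. Its 4 saline libraries had 61.6, 87.0, 62.3 and 108.8 CPM (80.0 ± 22.6, SD, n = 4). The PPE week 1 libraries had 12.5, 14.4, 30.2 and 31.6 CPM (22.2 ± 10.2) and the week 2 libraries 55.8, 69.1, 123.7 and 55.6 CPM (76.0 ± 32.4). All week 1 libraries were lower than every library of the other groups, and the week 2 libraries overlapped saline. The log2 fold change was -1.85 ± 0.35 (SE) at week 1 (edgeR, Benjamini-Hochberg adjusted p = 0.00756), -0.07 ± 0.34 at week 2 against saline (adjusted p = 0.952) and 1.77 ± 0.35 at week 2 against week 1 (adjusted p = 0.00922). With the precursor share as a covariate both calls were lost, at -2.15 (adjusted p = 0.0680) and 1.54 (adjusted p = 0.162).

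The pore-forming partner Kcnma1 had 8, 0, 2 and 6 counts in the saline libraries. It had 0, 0, 2 and 0 counts 1 week after PPE, and 0 in all 4 libraries of week 2. These 16, 2 and 0 counts come from an accession with no bases of its own, and a second accession held 9 more. No comparison was made. Of the other subunits and partners listed for this channel, 1 of 7 was tested and it was not called.

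Cacna1c, the pore of the L-type calcium channel, had 24 counts in the saline group, 6 in the PPE week 1 group and 26 in the PPE week 2 group, of which 20, 6 and 26 fell in a single library each. It was not tested. Of 12 other voltage-gated calcium channel genes 3 passed the filter and 0 were called in any comparison by edgeR, also before adjustment at p under 0.05, and 0 with DESeq2 or limma-voom. The beta subunit Cacnb2 had 1.14 ± 0.503 CPM in saline, 0.614 ± 0.473 at week 1 and 2.57 ± 2.53 at week 2.

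P2rx1, the ATP-gated cation channel of arterial smooth muscle, spans chr11:72999056-73015200 on the plus strand. Saline libraries had 21.9, 39.3, 37.9 and 39.9 CPM (34.8 ± 8.59), and the first of them stood apart from the other 3. PPE week 1 libraries had 23.0, 19.7, 22.1 and 24.4 CPM (22.3 ± 1.97) and week 2 libraries 54.4, 122.5, 151.8 and 83.5 CPM (103 ± 42.9). Week 1 overlapped saline through that first saline library, and all 4 week 2 libraries lay above the other 8. The log2 fold change at week 2 was 1.57 ± 0.27 against saline (edgeR adjusted p = 0.00734) and 2.21 ± 0.28 against week 1, 4.62-fold (adjusted p = 0.000650). At week 1 it was -0.64 ± 0.27 (adjusted p = 0.172). With the precursor share as a covariate the rise over saline was 1.77 and no longer called (adjusted p = 0.699), and the rise over week 1 kept its call. In the authors' deposited table for week 1 P2rx1 has a log2 fold change of -0.63 with an adjusted p of 0.0359, beside -0.64 and 0.172 here.

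Adora2a, the adenosine receptor that raises cyclic AMP and is carried by many leukocytes as well as vascular cells, spans chr10:75316877-75334792. Saline libraries had 5.40, 1.79, 4.05 and 4.14 CPM (3.84 ± 1.5). PPE week 1 libraries had 13.5, 11.5, 9.65 and 15.1 CPM (12.4 ± 2.36) and week 2 libraries 12.2, 8.15, 16.1 and 19.9 CPM (14.1 ± 5.07). Every PPE library was above every saline library, and the PPE weeks overlapped. The log2 fold change was 1.68 ± 0.40 at week 1 (edgeR adjusted p = 0.0164), 1.86 ± 0.40 at week 2 (adjusted p = 0.0192) and 0.18 ± 0.38 between the weeks (adjusted p = 0.855). These are the calls that depended most on single libraries: the week 1 call was lost without PPE week 1 replicate 4 (1.58), and the week 2 call without PPE week 2 replicate 4 (1.64), saline replicate 3 (1.88) or saline replicate 4 (1.89). Both were lost with limma-voom (1.65 and 1.83) and with the precursor share as a covariate (1.48 and 1.42), and the week 2 call also with only the 8 libraries compared (1.86).

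Adcy5, an adenylyl cyclase inhibited by calcium, spans chr16:35154494-35305743. Saline libraries had 147, 183, 126 and 159.7 CPM (154 ± 23.9). PPE week 1 libraries had 48.9, 37.8, 49.5 and 51.8 CPM (47.0 ± 6.24), all below the other 8. Week 2 libraries had 189, 152, 331 and 128.5 CPM (200.0 ± 90.6), which overlapped saline, with replicate 3 far above the others. The log2 fold change was -1.71 ± 0.24 at week 1, 3.27-fold lower (edgeR adjusted p = 0.00152), 0.38 ± 0.24 at week 2 against saline (adjusted p = 0.465) and 2.09 ± 0.25 between the weeks (adjusted p = 0.000650). With the precursor share as a covariate the week 1 value was -1.64 with an adjusted p of 0.0529, and the difference between the weeks kept its call. Scaling by library size alone, which moved the median of all accessions to 0.54 in week 2 against saline, gave Adcy5 0.86 there and called it (adjusted p = 0.0226), or 0.32 above that median.

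Ednra, the endothelin A receptor through which endothelin-1 contracts smooth muscle, spans chr8:77663029-77724452 on the minus strand. Its libraries had 90.0, 57.1, 78.3 and 92.5 CPM in saline (79.5 ± 16.2), 63.6, 51.0, 76.0 and 65.9 CPM at PPE week 1 (64.1 ± 10.3) and 56.2, 66.5, 47.7 and 29.6 CPM at week 2 (50.0 ± 15.6). All 3 groups overlapped. The log2 fold change was -0.31 ± 0.23 at week 1 (edgeR adjusted p = 0.494) and -0.67 ± 0.23 at week 2 (adjusted p = 0.132), so neither difference passed the test. Its ligand Edn1 had 16.0 ± 10.0 CPM in saline, 32.1 ± 4.10 at week 1 and 19.0 ± 9.11 at week 2, with no call (adjusted p = 0.165 at week 1).

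Atp2b4, a plasma membrane calcium pump at chr1:133702674-133801059, was measured at low depth. It had 8.53, 4.47, 1.31 and 3.62 CPM in saline, 1.19, 1.33, 1.20 and 5.19 at PPE week 1 and 7.65, 2.88, 5.87 and 5.40 at week 2. The groups overlapped, and the week 1 value of -1.02 ± 0.68 (edgeR adjusted p = 0.442) was -1.85 without the high PPE week 1 replicate 4, still not called. Another plasma membrane pump gene, Atp2b1, had 279 ± 35.7, 320.0 ± 11.1 and 246 ± 75.3 CPM in saline, week 1 and week 2, and was not called in any comparison. The store pump gene Atp2a2 is represented by a noncoding accession, with 4.97 ± 1.57, 2.88 ± 0.892 and 5.49 ± 2.82 CPM and no call, so its coding transcripts were not measured by it. Levels of these genes cannot be set against each other. Pln, the inhibitor of that store pump, had 3, 14 and 14 counts in the 3 groups, the last of them all in 1 library, and it overlaps the opposite-strand models Cep85l and Gm47644.

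Prkg1, the cyclic GMP dependent kinase of smooth muscle at chr19:30564487-31765268, had 1.57, 1.19, 0.523 and 4.27 CPM in saline, 0, 2.10, 3.14 and 0.898 at PPE week 1 and 6.90, 3.36, 6.83 and 2.45 at week 2. The week 2 libraries were the highest on average, 4.88 ± 2.32 CPM against 1.89 ± 1.65 in saline, and the groups overlapped. The log2 fold change of 1.36 ± 0.96 at week 2 was not called (edgeR adjusted p = 0.527). A second accession of the gene, of similar depth with 307 counts, gave 1.03 ± 0.99 there and was not called either.

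**Figure D2:**
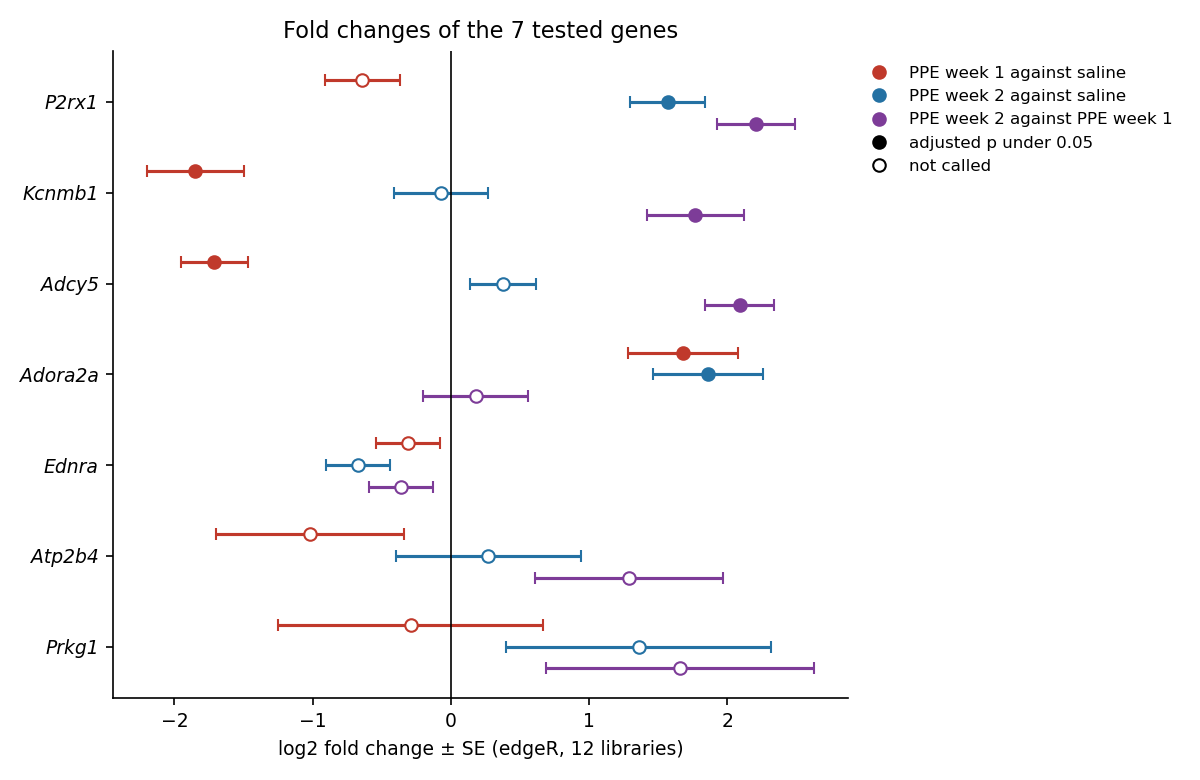
Log2 fold change with its standard error (horizontal axis) of the 7 tested genes in the 3 comparisons, from the edgeR model over all 12 libraries; filled points passed an adjusted p of 0.05. Kcnmb1 and Adcy5 lie left of 0 at week 1 and right of 0 between the weeks, Adora2a lies right of 0 at both times against saline, and the bars of Atp2b4 and Prkg1 are the widest.

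Kcnmb1, P2rx1 and Adcy5 rose between the PPE weeks, and upstream stretches are shown for that reason. They come from the promoter table of RefSeq (GRCm38.p6), on the plus strand. That table's start lies inside the gene span given above for all 3 genes, so only bases before the span and before the first GENCODE exon are printed, which leaves none for Adcy5. The stretches are chr11:33962763-33962954 for Kcnmb1 and chr11:72998895-72999055 for P2rx1, written 5′ to 3′ without capitals since neither motif searched occurs in them.
Kcnmb1: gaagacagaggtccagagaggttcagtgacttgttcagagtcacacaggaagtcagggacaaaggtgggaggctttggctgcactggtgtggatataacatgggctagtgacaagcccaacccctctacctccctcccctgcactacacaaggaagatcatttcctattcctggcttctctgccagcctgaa
P2rx1: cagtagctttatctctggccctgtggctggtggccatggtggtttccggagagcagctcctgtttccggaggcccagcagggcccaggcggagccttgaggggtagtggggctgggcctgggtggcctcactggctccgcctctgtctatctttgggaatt

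Both strands of the 250 bases before each start of that table, which may lie within the gene span, were searched for the CArG box, bound by serum response factor, and for TGACG, the core of the cyclic AMP response element. Of the 10 genes 9 matched an entry in the promoter table, with 12 windows among them. The CArG box occurred in 0 of the 12 windows, beside 1.47% of all 32851 promoter windows. TGACG occurred in 1, of Cacna1c, beside 17.8% of all windows. A match or its lack in these letters says nothing about binding.

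Per kilobase of transcript, which allows levels to be compared between genes, the 5 genes with a single accession changed their order between groups. In saline Adcy5 (22.0 ± 3.41 CPM per kb), Ednra (21.9 ± 4.46) and Kcnmb1 (19.1 ± 5.39) lay within their spread of each other, followed by P2rx1 (14.0 ± 3.45), whose range overlapped that of Kcnmb1, and Adora2a (1.48 ± 0.579). At PPE week 1 Ednra was the highest at 17.7 ± 2.84, above P2rx1 (8.96 ± 0.792), Adcy5 (6.71 ± 0.891), Kcnmb1 (5.29 ± 2.42) and Adora2a (4.79 ± 0.908), and the last 3 overlapped. At week 2 P2rx1 led with 41.5 ± 17.2, beside Adcy5 (28.5 ± 12.9), Kcnmb1 (18.1 ± 7.72) and Ednra (13.8 ± 4.31), each overlapping the next, while Adora2a had 5.43 ± 1.95. These values are descriptions and were not tested between genes.

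Likeness between genes was measured as the root mean square difference of log2 CPM over the 12 libraries after centring each gene on its own mean, over 12227 genes. For Adcy5 the closest genes were Rasl12 (0.189), Cnn1, the smooth muscle protein calponin (0.253), and Myl9, a myosin light chain (0.261), where the median over all genes was 1.14. For Kcnmb1 they were Carmn, a long noncoding RNA of smooth muscle (0.267), Ppp1r12b, a myosin phosphatase subunit (0.280), and Tagln, transgelin (0.296), where the median was 1.20. For P2rx1 they were Scube3 (0.310), Cspg4, a proteoglycan used as a marker of pericytes (0.350), and Nav2 (0.422). The closest pair within the 7 genes was Kcnmb1 and Adcy5 at 0.400, and P2rx1 was 0.671 from Adcy5 and 0.814 from Kcnmb1. For Adora2a the closest were Nkiras2 (0.403), Map3k9 (0.412) and Ap5z1 (0.425), and it was 1.51 from Adcy5. Ednra had Eif2a (0.209), Flrt2 (0.235) and Snx12 (0.244) closest, but its own spread over the libraries was small at 0.430. For the sparsely counted Atp2b4 (Ppp1r9a, Clec3b and Zbtb16) and Prkg1 (Fxyd7, Arhgef26 and Peli3) the closest differences were 0.482 and 0.765. All these genes share the same 12 libraries.

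The other genes of the same pathways were taken from 11 lists of 164 genes in the table besides the members, of which 99 were tested. At PPE week 1 5 were called higher and 16 lower (3.98% and 3.91% of all accessions), with a median log2 fold change of -0.26 where all accessions had 0.00. At week 2 against saline 1 was called higher and 3 lower (1.3% and 1.35% of all accessions, median 0.11 beside 0.05), and between the weeks 14 were called higher and 3 lower (3.77% and 2.82% of all accessions, median 0.33 beside 0.02). All 42 of these calls were lost with the precursor share as a covariate, and 16 were kept when any 1 library was left out. The 16 lower calls at week 1 became 9, 7 and 9 without PPE week 1 replicate 1, 2 or 3 and 8 without saline replicate 4, and the 5 higher became 3 and 2 without PPE week 1 replicate 1 or 2. The 14 higher calls between the weeks became 8, 6 and 9 without PPE week 1 replicate 1, 2 or 3 and 6 without PPE week 2 replicate 3. The 3 lower calls there became 0, 1 and 1 without those week 1 replicates and 8 without PPE week 2 replicate 4.

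**Figure D3:**
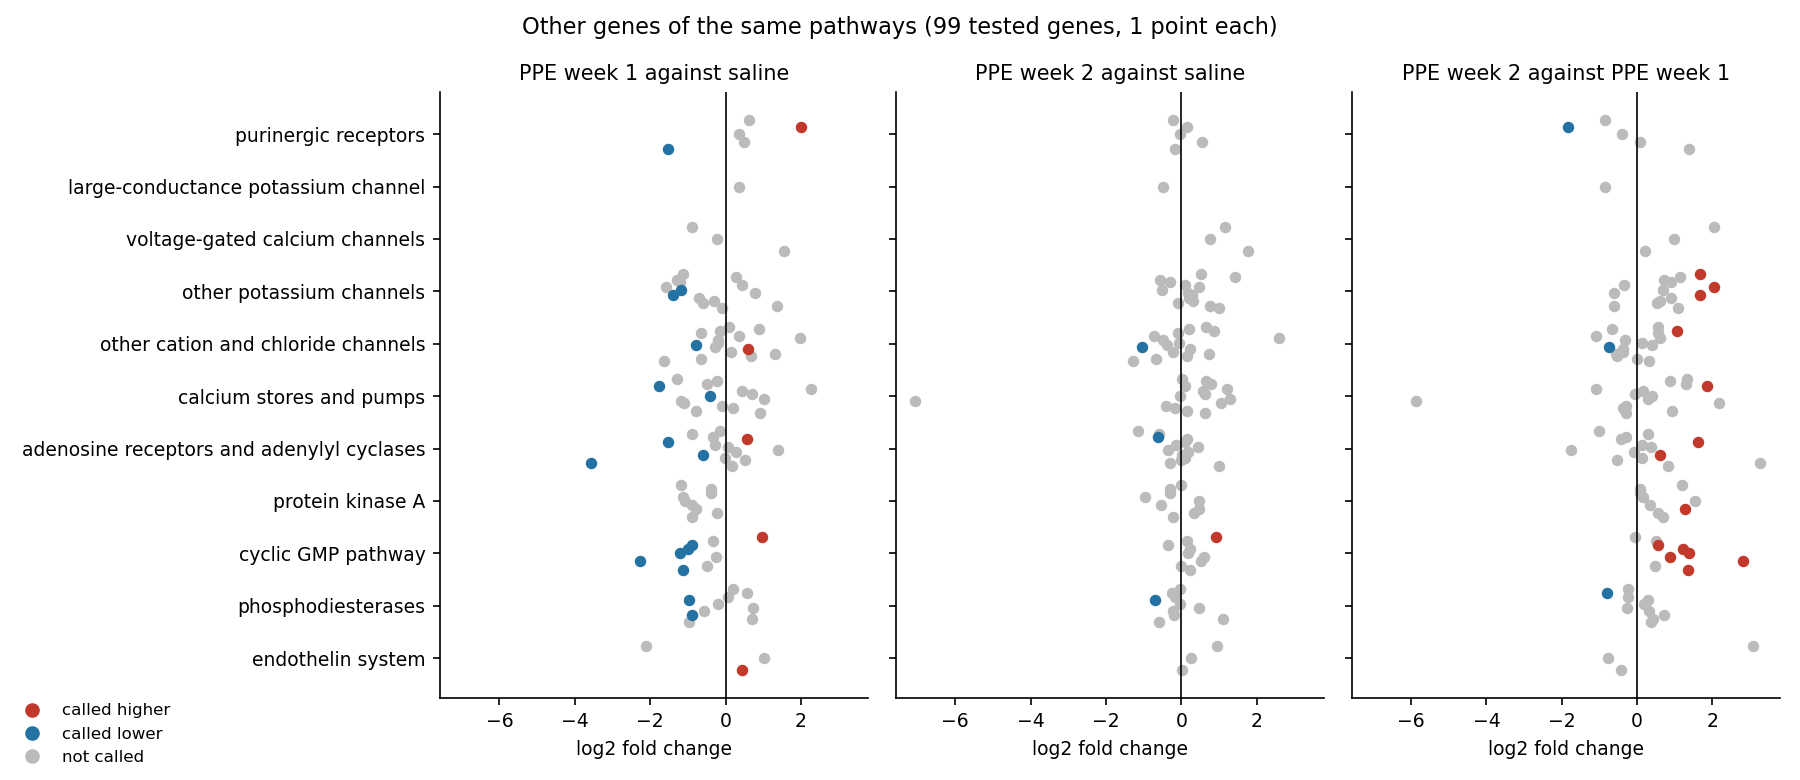
Log2 fold change (horizontal axes) of the 99 tested genes of the 11 pathway lists, 1 point per gene, in each of the 3 comparisons; red and blue points were called higher and lower at an adjusted p of 0.05. The cyclic GMP list holds 5 blue points at PPE week 1 and 6 red points between the weeks.

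Of the cyclic GMP list's 9 tested genes other than Prkg1, 5 fell and 1 rose at PPE week 1 and 6 rose between the weeks, where 3.91%, 3.98% and 3.77% of all accessions were called in those directions. The smooth muscle markers moved the same way, 6 of 8 lower at week 1 and 6 higher between the weeks, with a summed level of 1856 to 3279 CPM at week 1 and at least 4956 CPM in the other libraries. Their part in these changes was not tested. Gucy1a1, a subunit of the nitric oxide receptor guanylyl cyclase, went from 164 ± 30.4 CPM in saline to 75.0 ± 21.1 at week 1 and 191 ± 46.2 at week 2 (log2 fold change -1.13 ± 0.22, edgeR adjusted p = 0.00553, and 1.35 ± 0.22 between the weeks, adjusted p = 0.00222). Npr1, the receptor of atrial natriuretic peptide, had 128 ± 18.0, 55.4 ± 8.28 and 145 ± 61.5 CPM, and Npr2, the receptor of C-type natriuretic peptide, 89.3 ± 22.0, 44.8 ± 13.6 and 104 ± 17.8 CPM. Both fell at week 1 (-1.21 ± 0.25 and -0.99 ± 0.22) and rose between the weeks (1.39 ± 0.25 and 1.22 ± 0.22). The calls of Gucy1a1, Npr1 and Npr2 in both comparisons held when any 1 library was left out. That of Npr2 at week 1 was lost with scaling by library size alone.

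Known substrates of the kinase were among them. Ppp1r12a, the targeting subunit of myosin phosphatase, fell by 0.90 on the log2 scale at PPE week 1 (499 ± 59.1 to 267 ± 22.5 CPM) and rose by 0.55 between the weeks, the second call being lost without replicate 2 or 3 of PPE week 1 and without replicate 3 of PPE week 2. Mrvi1, the IP3 receptor associated substrate, had only 3.39 ± 1.57, 0.685 ± 0.264 and 4.87 ± 1.85 CPM, and its fall at week 1 (-2.27 ± 0.67, edgeR adjusted p = 0.0463) was kept in 2 of 12 leave-outs, those without PPE week 2 replicate 1 or 2. Its rise between the weeks (2.80 ± 0.68, adjusted p = 0.0206) was lost without replicate 1, 2 or 4 of PPE week 1 and without replicate 3 of PPE week 2. Rgs2, a regulator that limits G protein signalling, differed in direction: it rose at week 1 (0.96 ± 0.22, 38.9 ± 9.36 to 75.6 ± 5.37 CPM) and had 73.0 ± 20.4 CPM at week 2, where its call was kept in 3 of 12 leave-outs. Nos3, the endothelial nitric oxide synthase, rose between the weeks from 34.3 ± 3.42 to 62.8 ± 16.9 CPM (0.87 ± 0.20), a call lost without replicate 1, 2 or 3 of PPE week 1 and without replicate 3 of PPE week 2.

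Of the phosphodiesterases, which break cyclic nucleotides down, 2 of 10 tested were lower at PPE week 1, beside 3.91% of all accessions. Pde5a, specific for cyclic GMP, had 122 ± 11.2 CPM in saline, 61.9 ± 7.39 at week 1 (-0.98 ± 0.17, edgeR adjusted p = 0.00329) and 75.4 ± 17.8 at week 2 (-0.70 ± 0.17, adjusted p = 0.0389). Between the weeks Pde5a was not called (0.28 ± 0.17, adjusted p = 0.382). Its week 1 call held without any 1 library and its week 2 call was kept in 2 of 12 leave-outs, those without PPE week 2 replicate 1 or 3. Pde3a, which cyclic GMP inhibits, fell at week 1 (-0.90 ± 0.23, 199.7 ± 36.1 to 107 ± 32.2 CPM), a call lost without replicate 1 or 2 of PPE week 1 and without saline replicate 3 or 4.

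Among adenylyl cyclases, adenosine receptors and G proteins 14 other genes were tested. At PPE week 1, 3 were lower and 1 higher, beside 3.91% and 3.98% of all accessions. Adcy6, the other calcium-inhibited cyclase, fell by 0.60 ± 0.13 on the log2 scale at week 1 (171 ± 10.7 to 113 ± 4.17 CPM) and rose by 0.62 ± 0.13 between the weeks (edgeR adjusted p = 0.0103 and 0.00982), in both cases also when any 1 library was left out. The week 1 call of Adcy6 was lost with scaling by library size alone. The second A2-type adenosine receptor, Adora2b, had 2.57 ± 0.812, 6.77 ± 3.34 and 1.99 ± 0.990 CPM and was not called (adjusted p = 0.184 at week 1). Gnai3, an inhibitory G protein, was lower at week 2 than in saline (-0.61 ± 0.16, adjusted p = 0.0459), a call kept in 2 of 12 leave-outs, those without PPE week 2 replicate 1 or saline replicate 1. In the protein kinase A list edgeR called 1 of 9 genes, Hspb6, a small heat shock protein phosphorylated by cyclic nucleotide dependent kinases. Hspb6 rose between the weeks from 10.9 ± 1.44 to 26.1 ± 4.05 CPM (1.26 ± 0.24), where 3.77% of all accessions were called higher. At week 1 the list had a median log2 fold change of -0.88 and 0 calls by edgeR or limma-voom. There 4 genes were lower in edgeR before adjustment at p under 0.05, and 4 with DESeq2, which called 755 of all 12756 accessions lower. In 6 of the 9 all week 1 libraries lay below saline, beside 9.01% of all accessions. The regulatory subunit Prkar2b had 98.8 ± 38.5, 43.8 ± 9.60 and 99.1 ± 69.7 CPM and was not called.

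Of 14 other potassium channel genes 2 were lower at PPE week 1 and 3 higher between the weeks (3.91% and 3.77% of all accessions). Kcnj8, the pore of the vascular ATP-sensitive potassium channel, had 28.7 ± 6.17, 12.7 ± 1.87 and 20.3 ± 8.65 CPM, lower at week 1 (-1.18 ± 0.30, edgeR adjusted p = 0.0251), a call lost without replicate 1, 2 or 3 of PPE week 1 and without saline replicate 4. Kcna5 had 5.73 ± 1.49, 3.77 ± 0.863 and 5.41 ± 2.67 CPM without a call. Of 16 other cation and chloride channels 1 was lower and 1 higher at week 1, and 1 was lower at week 2 than in saline. Over all accessions these shares were 3.91%, 3.98% and 1.35%. Pkd2, a polycystin, fell at week 1 (-0.79 ± 0.15), the mechanosensitive channel Piezo1 rose (0.60 ± 0.13), and Piezo2 was lower at week 2 (-1.03 ± 0.18, 169 ± 16.1 to 82.8 ± 20.8 CPM). These 3 calls held when any 1 library was left out, but those of Pkd2 and Piezo2 were lost with scaling by library size alone. Trpc6 had at most 1.34 ± 1.35 CPM in any group and was not called.

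Among calcium stores and pumps 2 of 15 tested genes were lower at PPE week 1. Over all accessions 3.91% were called lower there and 3.98% higher. Ryr2, a ryanodine receptor, had 108 ± 11.98, 32.0 ± 25.3 and 117 ± 46.4 CPM (-1.76 ± 0.48 and 1.86 ± 0.48, edgeR adjusted p = 0.0471 and 0.0422), with each call kept in 3 of 12 leave-outs, those without replicate 4 of PPE week 1 and replicate 3 or 4 of PPE week 2 for the fall, and without replicate 4 of PPE week 1 and replicate 2 or 4 of PPE week 2 for the rise. Itpr1, an IP3 receptor, had 387 ± 35.2, 289 ± 24.2 and 380 ± 41.6 CPM (-0.42 ± 0.12, adjusted p = 0.0338), a call kept in 5 of 12 leave-outs, those without PPE week 2 replicate 1, 2, 3 or 4 or saline replicate 3. Of 5 other purinergic receptors P2ry13, an ADP receptor of blood and immune cells, was the 1 called higher at week 1 (3.58 ± 1.59 to 14.2 ± 3.65 CPM, 1.99 ± 0.42), and it fell between the weeks (-1.82 ± 0.41). Its first call was lost without PPE week 1 replicate 2 and its second without PPE week 1 replicate 1 or 2. The 1 called lower at week 1 was P2rx5, an ATP-gated channel of the same family as P2rx1, named after its values were seen (15.8 ± 6.97 to 5.51 ± 2.53 CPM, -1.52 ± 0.44, edgeR adjusted p = 0.0441). That call was kept in 5 of 12 leave-outs, those without saline replicate 2 or any replicate of PPE week 2. P2ry6 had 43.6 ± 6.59, 67.6 ± 8.98 and 37.3 ± 18.0 CPM without a call.

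Smooth muscle markers also moved with Kcnmb1 and Adcy5. The summed level of 8 markers was 5346 to 7018 CPM in saline, 1856 to 3279 at PPE week 1 and 4956 to 10780 at week 2, lower at week 1 than in saline and than at week 2 (two-sided exact permutation test, p = 0.0286 for each) and not different by that test between week 2 and saline (p = 0.714). Of the 8 markers 6 fell at week 1 and 6 rose between the weeks (3.91% and 3.77% of all accessions), and none was at 0 in a whole group. In these bulk samples, fewer smooth muscle cells and less RNA per cell cannot be told apart.

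Set against that sum in each library, a description added after the data were seen, Kcnmb1 had 13.2 CPM per 1000 marker CPM in saline, 8.99 at PPE week 1 and 10.9 at week 2, and Adcy5 had 25.8, 20.1 and 28.4. Both overlapped between saline and week 1 on this scale, where their plain levels had not. Between the PPE weeks Kcnmb1 overlapped, while Adcy5 lay entirely higher at week 2 than at week 1. P2rx1 had 5.78, 9.57 and 15.0, with both PPE groups entirely above saline. Adora2a had 0.656, 5.33 and 2.23, again with both PPE groups above saline. Ednra had 13.4, 27.4 and 7.70, with week 1 entirely above both other groups. The plain means of P2rx1 and Ednra were not higher at week 1 than in saline (22.3 against 34.8 and 64.1 against 79.5 CPM). The marker sum averaged 5988 CPM in saline and 2405 at week 1, most of it Acta2 (mean 3569 and 1497). Over the 21 tests of 7 genes in 3 comparisons the smallest two-sided exact permutation p was 0.0286, the smallest possible, and no Benjamini-Hochberg adjusted value was below 0.0857. An adjusted value under 0.05 was out of reach unless many of the 21 tests reached that smallest p. No conclusion is therefore drawn from these adjusted values.

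**Figure D4:**
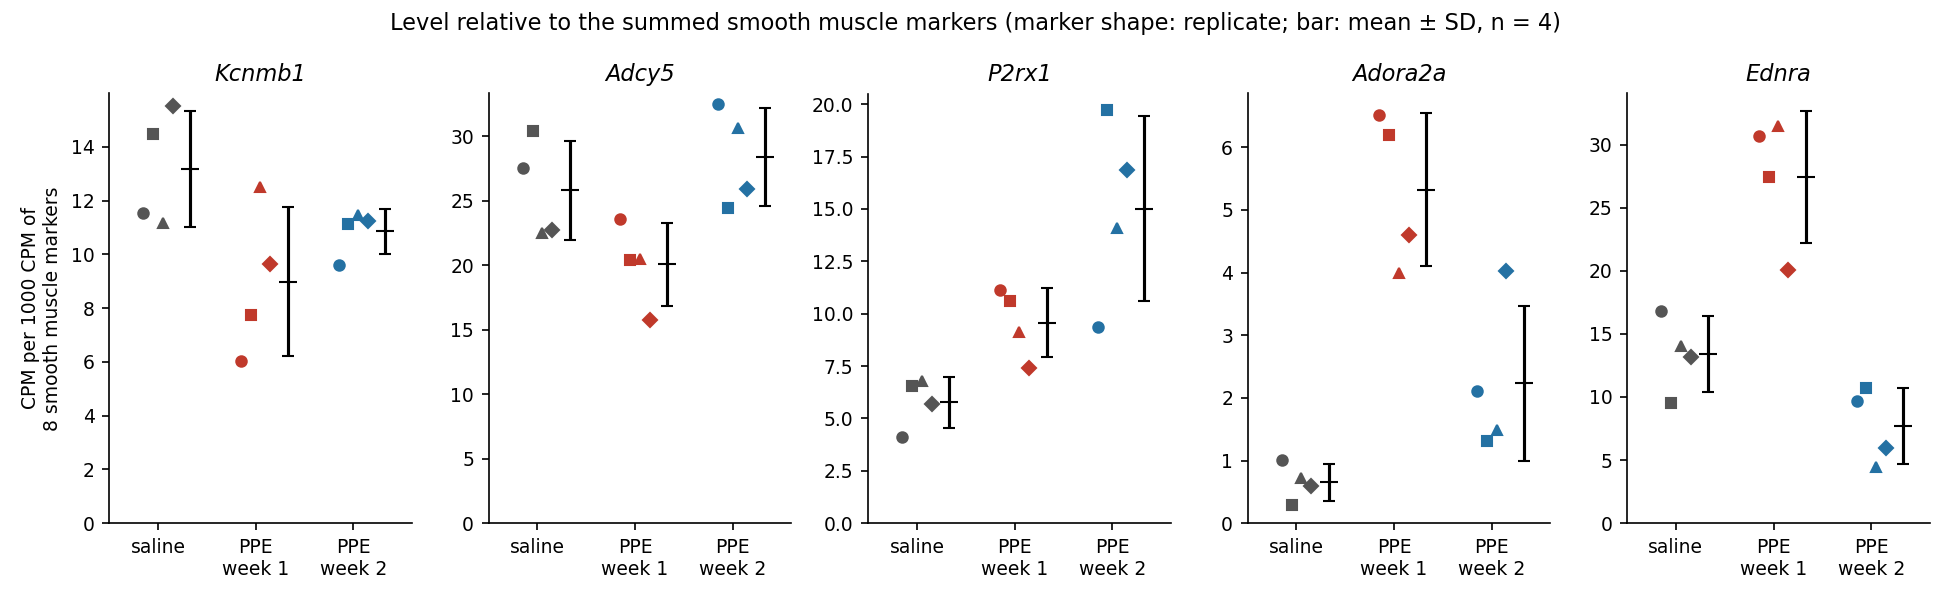
Level of 5 genes per 1000 CPM of the 8 summed smooth muscle markers (vertical axes, linear, from 0) in each library of the 3 groups; marker shapes are replicates and black bars the mean ± SD of 4. Kcnmb1 and Adcy5 overlap between saline and PPE week 1, while P2rx1 and Adora2a lie above saline in both PPE groups and Ednra is highest at PPE week 1. The PPE week 2 libraries of Adcy5 lie above its PPE week 1 libraries.

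Summed leukocyte markers moved with Adora2a and P2ry13 at PPE week 1. The sum of 8 macrophage and monocyte markers was 1853 to 2295 CPM in saline, 3432 to 4477 at week 1 and 1125 to 2894 at week 2, with Itgam at 0 in all groups and 2 of 7 tested markers called higher at week 1. The 7 T and natural killer cell markers summed to 14.6 to 33.4, 101.5 to 142 and 20.7 to 120.3 CPM, with 2 of 5 tested called higher at week 1. The 6 neutrophil markers summed to 6.80 to 15.5, 35.6 to 133 and 2.63 to 18.4 CPM, with S100a9 at 0 in all groups. Of 3 tested neutrophil markers 0 were called higher at week 1. Over all accessions 3.98% were called higher there. At week 2 all 3 sums overlapped saline, with means of 1932 against 1996 CPM for macrophages, 10.5 against 11.3 for neutrophils and 65.5 against 25.7 for T and natural killer cells, while all 4 Adora2a values were above saline. The part of these cells in the level of Adora2a or P2ry13 was not tested. Endothelial markers summed to 649 to 860 CPM in saline, 687 to 802 at week 1 and 728 to 1221 at week 2, with Pecam1 and Tek at 0 in all groups. The zeros of Itgam, S100a9, Pecam1 and Tek are not used as a measure of their expression, and the reason for them was not tested. These sums therefore rest on the other markers of each list. The 8 fibroblast markers summed to 21360 to 28020, 28140 to 35890 and 20870 to 31770 CPM, most of it Col1a1 (mean 22800, 29990 and 24210). Of these 8, named after their values were seen, 4 were called lower at week 1 (Dpt, Lum, Dcn and Pi16) and 3 at week 2 (Dpt, Lum and Dcn), and 2 were higher at week 2 than at week 1. Over all accessions these shares were 3.91%, 1.35% and 3.77%. The 7 adipocyte markers summed to 628 to 1798, 285 to 551 and 185 to 2635 CPM, and the 8 Schwann cell and neuron markers to 18.3 to 55.4, 32.9 to 157 and 66.2 to 385 CPM. Skeletal and cardiac muscle markers summed to no more than 31.8 and 31.3 CPM in any library.

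In the authors' deposited tables the fold changes of the 7 tested genes had the same sign as here. Their log2 fold changes at PPE week 1 are -1.75 for Kcnmb1, -1.69 for Adcy5 and 1.47 for Adora2a, and at week 2 1.33 for P2rx1 and 1.35 for Adora2a, with adjusted p-values of 0.00634 or less. They give Ednra -0.32 and -0.59, with adjusted p-values of 0.266 and 0.183.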

How the data were processed

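RNA of 12 aortas was sequenced from libraries of an unstranded TruSeq v2 kit, per the labels' protocols. The authors deposited raw counts per RefSeq accession and 2 tables of their own comparisons with control, holding log2 fold changes, p-values and adjusted p-values. Tools in the submitters' processing notes are bcl2fastq and DESeq2, with mm10 as the build and no versions. The aligner, the counter and its annotation were not given in the sources used. The replicates are separate animals per the labels.

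The counts were fitted with edgeR 4.0.16 in R 4.3.3 (filterByExpr, which kept 12756 accessions of 12273 genes, TMM, glmQLFit with robust estimation and glmQLFTest, two-sided) over all 12 libraries with 1 mean per group. Benjamini-Hochberg adjustment ran over all accessions with 0.05 as the threshold. The biological coefficient of variation was 0.512. The SE is the size of the log2 fold change divided by the root of F. Levels are mean ± SD of TMM-scaled CPM, and log2 CPM used a prior count of 2. Fits were tested on simulated counts.

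Of counts from 2 to 20, 66.0 to 75.6% per library were even, and halved counts were among the alternatives, with DESeq2 1.42.0, limma 3.58.1, other scalings, filters, covariates and leaving out each library. No replicate pair agreed within sampling noise (chi-square per feature 14.7 to 87.1), so none was merged.

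The members and gene lists were chosen with earlier results of these data known. Named were all members, a fixed set of pathway genes with, per comparison, up to 6 further called genes of smallest adjusted p, and the 3 genes most like each tested member. A gene that this rule names is not reported here. From that fixed set Gucy1b1, Abcc9, Cacna2d1, Prkaca, Ednrb and P2rx4 did not pass the count filter.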

Additional observations from a re-analysis of the deposited data

Results flagged for a closer look

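In 21 groups of 4 libraries, those of the 7 tested genes, 2 held a library far from the other 3: P2rx1 in saline, where the lowest library had 21.9 CPM and its gap took 0.890 of the group's range, and Atp2b4 in PPE week 1, where the highest had 5.19 CPM and the gap took 0.967. Chance gives about 1 such group in 20. Left out, neither library ended or made a call of its gene.

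For 3 genes the level at PPE week 2 differed from that at PPE week 1, tested as the contrast between the PPE groups in edgeR over all accessions. Without a saline group of day 14, this cannot be read as a difference between effects of elastase. The difference was 2.21 on the log2 scale for P2rx1, 1.77 for Kcnmb1 and 2.09 for Adcy5, with adjusted p-values of 0.000650, 0.00922 and 0.000650 and all 4 libraries of week 2 above all 4 of week 1. With the share of the ribosomal precursor as a covariate the calls of P2rx1 and Adcy5 were kept (adjusted p = 0.0318 for each) and that of Kcnmb1 was lost.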

How the results depend on the processing

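Of 462 alternative values of the 21 gene results, 437 kept their direction and side of the threshold, 13 lost a call, 1 gained one and 11 changed sign, and the cause of these was not tested. Sign changes were all in values that were not called. With the precursor share as a covariate Adora2a was -0.06 between the weeks and Prkg1 -1.15 at week 2. With library-size scaling, which moved the median of all accessions to 0.28 (week 1), 0.54 (week 2) and 0.23 (between the weeks), Kcnmb1 was 0.40 at week 2, Prkg1 0.01 at week 1 and Adcy5 0.86 at week 2, now called. Over the leave-outs Kcnmb1 at week 2 ran from -0.41 to 0.11 (0.05, 0.05 and 0.11 where positive), Prkg1 at week 1 from -0.92 to 0.48 (0.12 without PPE week 1 replicate 1), Adora2a between the weeks from -0.04 to 0.38 and Atp2b4 at week 2 from -0.03 to 0.79.

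With the covariate 0 members were higher and 0 lower at week 1, 0 were higher at week 2, and 0 pathway genes were called in either direction in all 3 comparisons by edgeR (at an unadjusted p under 0.05, 10 higher and 20 lower at week 1, 3 and 5 at week 2, and 19 and 10 between the weeks). With limma-voom 0 members were higher at week 1 and 1 at week 2, and with only the 8 libraries compared 1 at week 2. Over the leave-outs members higher ran from 0 to 1 at week 1 and 1 to 2 at week 2.

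Pathway genes called higher at week 1 were 8 with DESeq2, 10 with only the 8 libraries and 9 with library-size scaling, and 2 to 7 over the leave-outs. Those lower at week 1 were 6 with library-size scaling and 7 to 18 over the leave-outs. Those higher at week 2 were 3 with DESeq2, 0 with limma-voom, 0 with only the 8 libraries, 0 with the replicate block and 10 with library-size scaling (0 to 1 over the leave-outs), and those lower there 5 with DESeq2, 1 with only the 8 libraries and 0 with library-size scaling (1 to 3 over the leave-outs). Those lower between the weeks were 7 with DESeq2, 6 with limma-voom, 6 without the count filter, 1 with only the 8 libraries and 1 with library-size scaling (0 to 8 over the leave-outs), and those higher there 6 to 17 over the leave-outs.

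Same-numbered libraries did not deviate together (r from -0.088 to 0.035 over 12 pairs, and 0 libraries matched their own number best). Other pairs ran from -0.093 to 0.110. No pairing by replicate number was thus seen, though such correlations cannot exclude a weak one. The replicate block changed no member's call.

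Atp2b4 and Prkg1 had the fewest counts of the tested members and the largest standard errors, and Kcnma1, Pln and Cacna1c were too sparse to test.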
